A study of Mus musculus with 2 samples.

Results

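The complement genes described here are 9 of the 35275 genes counted by RNAseq in control and senescent AML12 hepatic cells. They are C3, the C1 proteases C1s1 and C1ra, C4b, factor B (Cfb), the lectin pathway protease Masp1, the C1 inhibitor Serping1, and the membrane regulators Cd55 and Cd59a. The 9 genes were selected by name with the senescent against control values of these same libraries already known, so their values are a description and are given with no test. AML12 is a hepatocyte line from a mouse transgenic for human TGF-alpha, labelled as CD-1 strain, liver, male and 3 months of age. The control library came from untreated cells, and the senescent library came from cells given 1 mM hydrogen peroxide for 1 h on the first day and 0.75 mM for 1 h on each later day, over 6 days, with 23 h of recovery after each exposure. Both groups grew in medium with fetal bovine serum, and the peroxide exposures were made in serum-free medium. The complete medium used for recovery also held dexamethasone and ITS supplement. Each condition had 1 library, made from RNA of 3 pooled samples, so no spread between samples can be measured and no p-value is given.

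Complement is a cascade of plasma proteins, made largely by hepatocytes, that tags targets with fragments of C3 and C4 and can end in a membrane pore. The classical pathway starts with the proteases C1r and C1s, which cut C4 and C2. The lectin pathway starts with the MASP proteases, and the alternative pathway amplifies C3 cleavage through factor B. C1 inhibitor, CD55 and CD59 hold the cascade back at the initiating proteases, the convertases and the pore. Several of the liver components, C3 and factor B among them, are known as acute phase genes that respond to inflammatory cytokines.

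C3, C1s1 and C1ra were lower in the senescent library than in the control library, by 10.6-fold for C1ra to 22.4-fold for C1s1. Of the regulators among the 9 genes, Cd55 and Serping1 were higher and Cd59a was within 1.19-fold of its control value. A gene was called lower or higher if its reads summed to at least 10, its log2 ratio was past 1.5 and its 95% interval left out 0. The log2 ratio is of scaled counts, senescent over control, and the interval covers counting error only, as each condition had 1 library. It takes every read as independent. PCR copies of 1 molecule cannot be recognised without molecular identifiers, so even the counting error may be larger than the interval shows. By this rule 3 of the 9 genes were lower (C3, C1s1 and C1ra), 2 were higher (Cd55 and Serping1) and 4 were past neither limit. Over all 14383 genes with at least 10 reads, 805 were lower (5.60%) and 390 were higher (2.71%), and since the same contrast was known when the genes were chosen, nothing is read from the difference. All 9 had at least 10 reads, and their median log2 ratio was -1.25 beside -0.02 for all genes tested. In a bulk library, fewer cells making a transcript and less transcript per cell cannot be told apart.

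**Figure D1:**
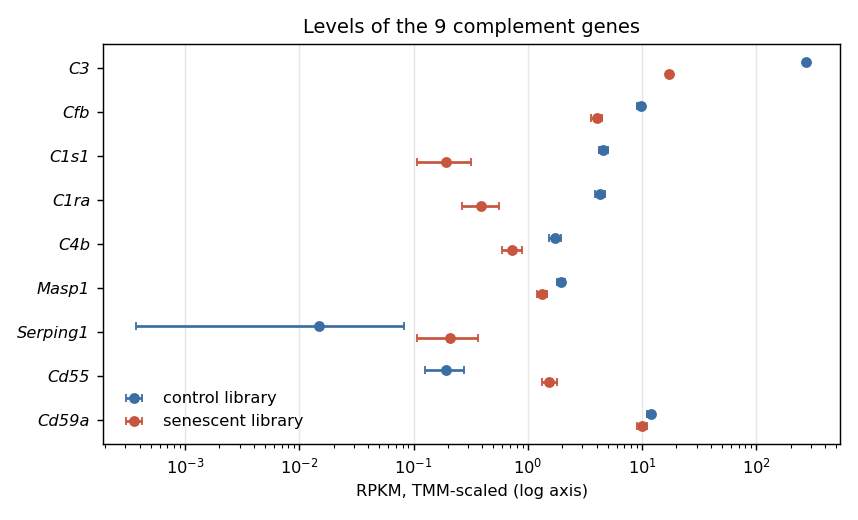
Level of each of the 9 complement genes in the control (blue) and senescent (red) library, as RPKM (reads divided by exon length and by scaled library size) on a log axis, with 95% counting intervals as bars. C3 moved from 274.5 to 17.2 and stayed the highest of the 9, whereas Cd55 moved from 0.191 to 1.55.

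C3, the central component on which the 3 pathways converge, had the most reads of the 9 genes in both libraries. Control cells gave 41055 reads and senescent cells 2194, a log2 ratio of -4.00 (95% interval -4.06 to -3.93), or 15.9-fold lower. Its level per kilobase of exon was 274.5 RPKM (272 to 277) in control and 17.2 RPKM (16.5 to 17.9) in senescent cells, and the intervals did not meet. Among 12448 protein-coding genes ranked by this level, C3 went from place 145 to place 3198. Its log2 ratio was the 5th lowest of 7804 genes with at least 1000 reads. C3 made up 93.0% (92.7% to 93.2%, exact binomial) of the reads of the 9 genes in control cells and 61.1% (59.4% to 62.7%) in senescent cells. Its share of all reads was 0.147% in control and 0.00852% in senescent cells. Nearest to C3 in log2 ratio among genes with at least 1000 reads were the chemokine Ccl20 (1270 and 67 reads, -4.00) and the sulfotransferase Sult1a1 (3256 and 143 reads, -4.27), a likeness over only 2 libraries.

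C3 lies at chr17:57203970-57228136 on the minus strand (GRCm38, GENCODE M21). The 250 bases before its start are shown because C/EBP factors are known to act on acute phase promoters and the C3 window holds their letters. The RefSeq promoter table (GRCm38.p6) gave a start for 5 of the 9 genes, C3, C1s1, C1ra, Cd55 and Cd59a. Each window was searched on both strands for TTGCNNAA (C/EBP), GAAANNGAA (IRF), TTCNNNGAA (STAT) and the NF-kB motif. The window at chr17:57228137-57228386, minus strand, held TTGCNNAA with its first base 45 bases before the start, in capitals here.
C3: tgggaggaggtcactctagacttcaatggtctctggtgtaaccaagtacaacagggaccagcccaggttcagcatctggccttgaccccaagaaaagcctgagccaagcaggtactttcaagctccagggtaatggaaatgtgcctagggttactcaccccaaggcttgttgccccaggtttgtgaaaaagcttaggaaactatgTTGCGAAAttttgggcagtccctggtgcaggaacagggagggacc
The C/EBP letters stood in 9.56% of 32851 mouse promoter windows of the same length, and the IRF, STAT and NF-kB letters in 7.13%, 7.02% and 3.90%. A match is a description of the letters and not of a bound site. No other of the 4 motifs was found in the C3 window.

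C1s1 and C1ra encode the C1s and C1r proteases that open the classical pathway, and both were called lower. C1s1 had 418 reads in control and 15 in senescent cells, a log2 ratio of -4.49 (95% interval -5.42 to -3.83). C1ra had 372 and 29 reads, a log2 ratio of -3.41 (95% interval -4.05 to -2.91). Their levels per kilobase, 4.59 RPKM for C1s1 and 4.29 RPKM for C1ra, overlapped within counting error in the control library. In senescent cells the levels were 0.193 and 0.392, again with overlapping intervals. The ratio of C1ra to C1s1 per kilobase was 0.934 in control and 2.03 in senescent cells, and the difference between their log2 ratios, 1.08, had a 95% interval, as a log2 odds ratio, of 0.15 to 2.15. Of 10 such pairs compared, it was one of 4 whose interval did not include 0, with no correction for the number of pairs. The log2 ratio of C3 differed from that of C1ra by -0.59 (interval -1.10 to 0.06) and from that of C1s1 by 0.49 (interval -0.17 to 1.43), so neither difference was resolved at this depth.

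C1s1 (chr6:124530345-124542359, minus strand) and C1ra (chr6:124512405-124523443, plus strand) sit side by side, with the near copies C1rb and C1s2 further along the same cluster. C1s1 and C1s2 were 95.7% identical over 2082 coding bases, with a longest shared run of 229 bases, so a short read can fit both genes. A stretch of 90 coding bases (coding bases 1101 to 1190 of each) shows how little there is to tell them apart, with the 3 differing positions in capitals.
C1s1: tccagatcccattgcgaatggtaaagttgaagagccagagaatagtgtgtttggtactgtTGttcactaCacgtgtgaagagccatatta
C1s2: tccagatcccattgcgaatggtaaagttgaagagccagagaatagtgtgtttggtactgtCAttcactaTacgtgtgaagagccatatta
C1s2 itself had 25 reads in control and 1 in senescent cells, a log2 ratio of -3.53 (95% interval -9.77 to -1.80) that depends on the prior count, and was called lower. Summed over the pair, 443 reads became 16, a log2 ratio of -4.48 (95% interval -5.38 to -3.85). This sum describes the pair, and how many reads of each library belong to either copy, or were dropped because they fit both, is not known. C1ra and C1rb were 97.9% identical over 2121 coding bases, and their longest shared run was 757 bases. C1rb had 9 and 4 reads, and the sum of 381 and 33 reads gave -3.26 (95% interval -3.86 to -2.78). The antisense gene Gm16567, which shares 576 exon bases with C1s1, had 14 and 0 reads. The neighbouring C1rl, a C1r-like protease gene that was added to the description after its values were seen, had 126 and 10 reads and a log2 ratio of -3.31 (95% interval -4.52 to -2.50). All 5 protease genes of the cluster had fewer reads in the senescent library, and C1rb was the one not called lower. Over all genes tested, 5.60% were called lower. C1s1, C1ra and C1rl were chosen with their values known, and C1s2 and C1rb may share reads with their near copies. Nothing is therefore read from the count for the cluster.

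RefSeq gives 2 starts for C1s1, and the window that ends at the GENCODE start of the gene is shown for comparison with C3. This window, chr6:124542360-124542609 on the minus strand, held the C/EBP letters on the opposite strand, in capitals, with the far end 242 bases before the start, and no other motif searched.
C1s1 promoter: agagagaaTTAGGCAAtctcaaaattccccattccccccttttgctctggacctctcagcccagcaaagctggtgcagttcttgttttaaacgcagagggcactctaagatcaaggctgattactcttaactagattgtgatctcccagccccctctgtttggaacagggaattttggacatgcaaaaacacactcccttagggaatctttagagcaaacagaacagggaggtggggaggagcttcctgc
The window of the other start, chr6:124542322-124542571, begins past these letters and held none of the 4 motifs. The C1ra window (chr6:124512371-124512620, plus strand) held none of them either. It runs past the GENCODE start of C1ra at 124512405, so most of it lies within the gene, unlike the windows printed here. The Cd59a window held the IRF letters 187 bases before the start.

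C4b, Cfb and Masp1 carry the 3 pathways towards C3, and none of them passed the threshold. C4b, which encodes the C4 protein cut by C1s, had 288 reads in control and 103 in senescent cells, a log2 ratio of -1.25 (95% interval -1.59 to -0.92). Cfb, the protease component of the alternative pathway convertase, had 802 and 280 reads, a log2 ratio of -1.29 (95% interval -1.49 to -1.09). The intervals of both lay below 0, and the log2 ratios differed by 0.04 with an interval of -0.36 to 0.42. Masp1 had 561 and 325 reads, a log2 ratio of -0.56 (95% interval -0.76 to -0.36). C3 was further below its control value than Cfb by 2.71 on the log2 scale (interval of the difference -2.92 to -2.50). In level per kilobase, C3 exceeded Cfb by 28.1-fold in control cells and by 4.30-fold in senescent cells, and exceeded C4b by 157.9-fold and 23.6-fold.

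C4b (chr17:34728380-34743882, minus strand) and Cfb (chr17:34856374-34862518, minus strand) lie in the H2 class III region beside C2 and C4a. C2, the protease component of the classical convertase, had 222 and 110 reads and a log2 ratio of -0.78 (95% interval -1.13 to -0.45). Cfb was lower than C2 by a further 0.51 on the log2 scale (interval of the difference -0.90 to -0.11). C4a, which matched C4b at 95.9% over 5378 transcript bases, had 65 and 29 reads (-0.91). The sum of C4b and C4a, 353 and 132 reads, gave -1.18 (95% interval -1.49 to -0.90). The transcript model Gm20547 overlaps 2246 exon bases of Cfb on the same strand and had 0 reads in both libraries, and how reads over both models were assigned is not given in the sources used here. All 4 complement genes of the region were between -1.29 and -0.78, and none was past the threshold.

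Cd55 and Cd59a are GPI-anchored proteins that protect a cell from its own complement, the first by dissociating C3 convertases and the second by blocking the pore. Cd55 had 27 reads in control and 186 in senescent cells, a log2 ratio of 2.96 (95% interval 2.43 to 3.65), or 7.80-fold higher. Its level per kilobase was 0.191 RPKM (0.126 to 0.278) in control and 1.55 (1.33 to 1.78) in senescent cells, and the intervals did not meet. Cd59a had 625 and 449 reads, a log2 ratio of -0.25 (95% interval -0.43 to -0.07), within 1.19-fold of its control value. Under total-count scaling, which moved the median of all genes by -0.11, Cd59a was at -0.35. Cd59a was the second most abundant of the 9 genes per kilobase in both libraries, at 11.9 and 10.00 RPKM. Cd55b, which shares 379 transcript bases at 98.4% with Cd55, had 0 reads in both libraries, and Cd59b had 0 and 3 reads.

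Cd55 lies at chr1:130439027-130462744 on the minus strand, with Cd55b at chr1:130388537-130423009 on the same strand. The Cd55 promoter window (chr1:130462745-130462994, minus strand) is shown because the gene was higher where C3 and C1s1 were lower. It held none of the 4 motifs, and neither did the window of C1ra, which was called lower. Any link between these letters and the direction of a gene was not tested.
Cd55: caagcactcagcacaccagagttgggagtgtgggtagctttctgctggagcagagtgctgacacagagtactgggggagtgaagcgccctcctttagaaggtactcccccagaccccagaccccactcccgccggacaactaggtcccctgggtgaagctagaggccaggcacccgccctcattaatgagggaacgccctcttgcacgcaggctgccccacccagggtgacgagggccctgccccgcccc
C4bp, which encodes a plasma inhibitor of the classical convertase and lies on the same chromosome at chr1:130634773-130661632, had 1806 reads in control and 615 in senescent cells. Its log2 ratio was -1.32 (95% interval -1.46 to -1.19), opposite in sign to that of Cd55.

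Serping1, the serpin that blocks C1r, C1s and the MASP proteases, was at the limit of detection. There was 1 read in control and 12 in senescent cells, a log2 ratio of 2.87 (95% interval 1.06 to 9.23). The size of this ratio depends on the prior count added to each library: it was 3.65 with the smallest prior tried and 1.61 with a prior of 5. The level per kilobase of Serping1 in senescent cells, 0.208 RPKM, overlapped those of C1ra and C1s1 within counting error. In control cells its level was 0.0148, the lowest of the 9, beside 4.59 for C1s1.

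The order of the 9 genes per kilobase of exon in control cells was C3, Cd59a, Cfb, C1s1, C1ra, Masp1, C4b, Cd55 and Serping1. Neighbours overlapped within counting error at C1s1 with C1ra and at Masp1 with C4b. In senescent cells the order was C3, Cd59a, Cfb, Cd55, Masp1, C4b, C1ra, Serping1 and C1s1. Cd55 overlapped Masp1 there, and C1ra overlapped Serping1, which overlapped C1s1. C3, Cd59a and Cfb held the first 3 places in both libraries. Cd55 moved from place 8 to place 4, and C1s1 from place 4 to place 9. The place of Cd55 depends on the length used. With the longest transcript as length, Masp1 (2.45 RPKM) lay above Cd55 (2.39 RPKM) in senescent cells.

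**Figure D2:**
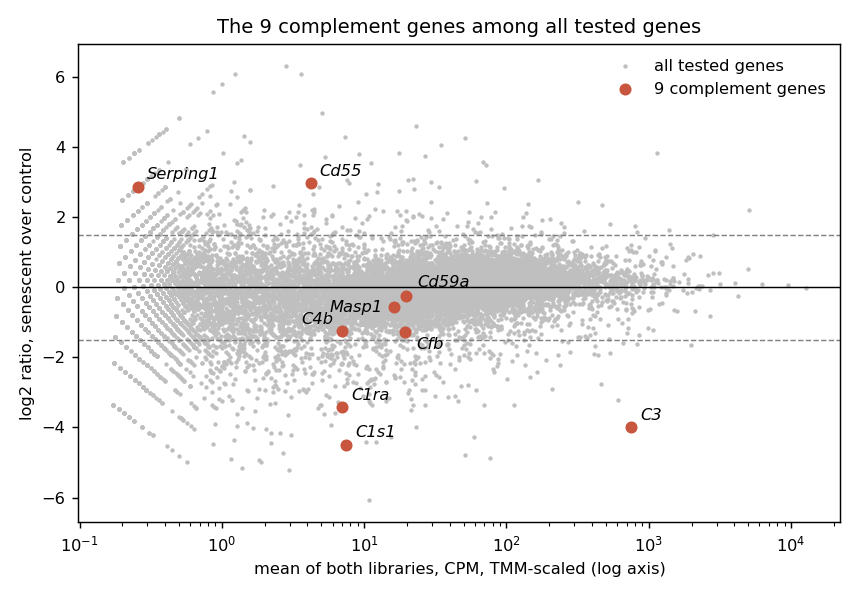
Log2 ratio of senescent over control against the mean level of both libraries (CPM after scaling, log axis) for all 14383 genes with at least 10 reads (grey) and the 9 complement genes (red), with dashed lines at a log2 ratio of 1.5 in either direction. C3, at -4.00, lies below nearly all genes of like abundance, C1s1 and C1ra lie low at moderate abundance, and Serping1 lies among genes with few reads.

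The rest of the complement system was read from a list of 58 genes by role, of which 57 were in the table (Cfhr4 was not analysed here). It includes the 9 genes and was also drawn up with earlier results known. With at least 10 reads there were 29 genes, of which 6 were lower, 5 higher and 18 past neither limit. Their median was -0.78 beside -0.02 for all genes tested. Over all genes tested, 5.60% were lower and 2.71% were higher, and nothing is read from the counts in this paragraph. Without the 9 genes, 20 had at least 10 reads, 3 were lower and 3 higher, and the median was -0.70. Of activating and terminal components, 5 of 14 were lower and 1 was higher, with a median of -1.08. Of soluble and membrane regulators, 1 of 13 was lower and 3 were higher, with a median of -0.55. The difference between activators and regulators was not tested.

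Among terminal components, C8g, the gamma chain of C8, had 42 and 5 reads (-2.63, 95% interval -4.54 to -1.51) and was called lower. Hc, which encodes C5, had 3 and 12 reads (1.89, 95% interval 0.34 to 4.69) and was called higher, with a ratio that depends on the prior count. C6, C7, C8a, C8b and C9 had at most 2 reads in either library. No terminal component reached 100 reads over both libraries, so differences in the pore genes were barely detectable at this depth. C1qa and C1qb, chains of the C1q recognition molecule that is known mainly as a product of macrophages, had 0 reads in both libraries, and C1qc had 0 and 2. A count of 0 was read against a set floor of 3 reads. This floor is 0.103 CPM (reads over the TMM-scaled library size) in control and 0.121 CPM in senescent cells. It is a setting and not a limit of the 95% intervals, and it leaves out any spread between samples. Mbl1, Mbl2, Fcna, Fcnb, Colec10 and Colec11, the recognition molecules of the lectin pathway, had at most 4 reads each. Masp2 had 9 and 14 reads (0.80, 95% interval -0.44 to 2.26). Of the alternative pathway, properdin (Cfp) had 68 and 70 reads (0.27, 95% interval -0.23 to 0.77), and Cfd, which encodes factor D, had 0 in both.

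Clusterin (Clu), a soluble inhibitor of the terminal complex and a secreted chaperone, was the complement-related gene with the most reads. It had 46990 reads in control and 74321 in senescent cells, a log2 ratio of 0.89 (95% interval 0.87 to 0.91), short of the threshold. Vitronectin (Vtn), which also inhibits pore assembly, had 95 and 10 reads (-2.91, 95% interval -4.12 to -2.08) and was called lower. Both genes encode inhibitors of the terminal complex, and their log2 ratios had opposite signs. Factor I (Cfi), the protease that inactivates C3b and C4b, had 2333 and 1015 reads (-0.97, 95% interval -1.08 to -0.86). Cfhr2 had 76 and 29 reads (-1.14, 95% interval -1.83 to -0.53). Cpn1, the catalytic subunit of carboxypeptidase N, which inactivates C3a and C5a, had 143 and 56 reads (-1.11). Cfi and Cpn1, like Cfb and C4b, had intervals below 0 and were short of the threshold.

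On the cell surface, Cr1l (Crry), the main C3 regulator of rodent cells, had 2028 and 1181 reads (-0.55, 95% interval -0.66 to -0.45). Cd46 had 46 and 25 (-0.63, 95% interval -1.41 to 0.08). Csmd1, a large membrane protein with complement control modules, had 6 and 23 reads (1.99, 95% interval 0.83 to 3.75) and was called higher. The C3a receptor C3ar1 had 20 and 81 reads (2.19, 95% interval 1.53 to 3.03) and was called higher, so the transcript of the ligand precursor C3 and that of the receptor had opposite signs. The remaining receptors, C5ar1, C5ar2, Cr2, Vsig4, Itgam, Itgax, Itgb2 and Cd93, had at most 8 reads in either library. Of the 57 genes, 28 had under 10 reads over both libraries, among them Cpn2, Cfhr3 and Susd4, and 14 had none.

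**Figure D3:**
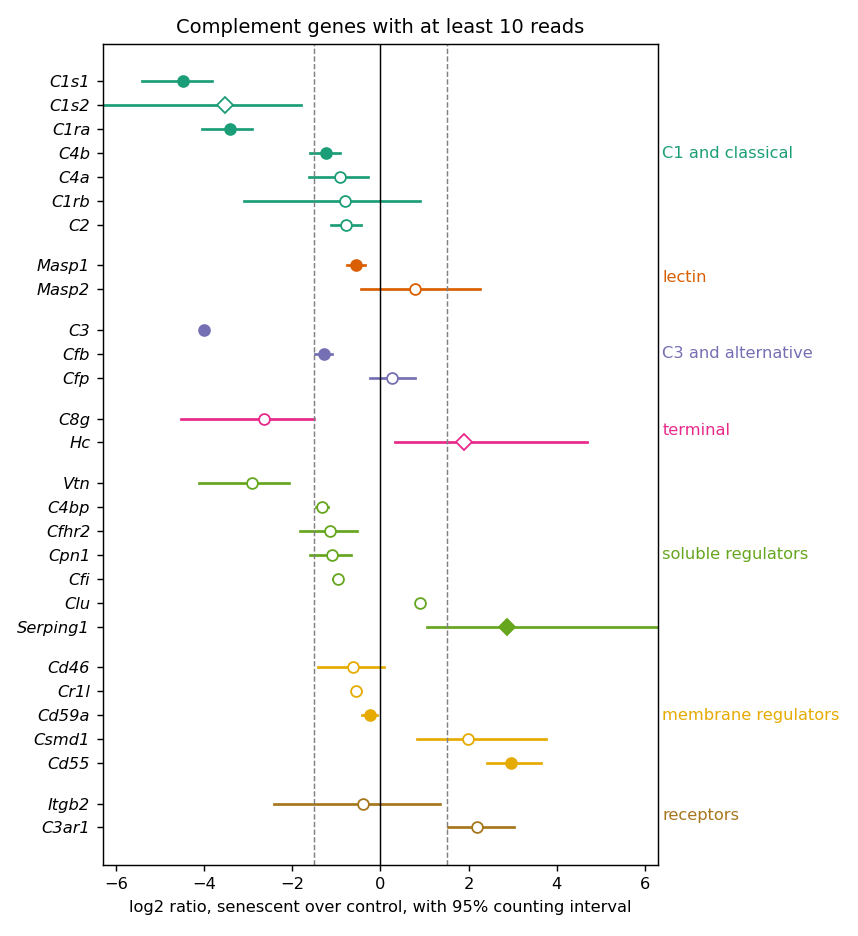
Log2 ratio of senescent over control with 95% counting intervals for 28 of the 29 complement genes with at least 10 reads, grouped by role in the cascade, with filled markers for the 9 selected genes, diamonds for genes with 3 or fewer reads in a library, whose ratio depends on the prior count, and dashed lines at 1.5 in either direction. C1s1, C3, C1s2 and C1ra lie furthest left, Cd55 and Serping1 furthest right, and bars of C1s2 and Serping1 run past the axis.

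C3 and factor B are known targets of interleukin-6, interleukin-1, interferon-gamma and C/EBP signalling, and 18 receptors and transcription factors of these routes were read alongside. Il1r1, the interleukin-1 receptor, had 563 and 66 reads (-2.85, 95% interval -3.25 to -2.49) and was called lower, the only one of the 18 called. Over all genes tested 5.60% were lower and 2.71% were higher, so this count lies near the share of all genes. The median of the 18 was -0.58. The C/EBP factors Cebpa (1993 and 626 reads, -1.44) and Cebpd (320 and 127 reads, -1.10) were short of the threshold, as was the interferon-induced factor Irf1 (2853 and 984 reads, -1.31). Stat3, Rela and Hnf4a were at 0.01, 0.02 and 0.14. The part of these genes in the complement values was not tested.

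Of 22 acute phase proteins, 12 had at least 10 reads, 8 of these were lower and 1 was higher, and the median was -1.87. The largest log2 ratios among those with at least 100 reads were those of Saa3 (626 and 7 reads, -6.08), Lcn2 (-4.86, from 4293 control reads), Hp (2886 and 88 reads, -4.79) and Orm1 (147 and 18 reads, -2.74). C3 lay between Hp and Orm1. Of 15 coagulation factors and inhibitors, 14 were in the table (Klkb1 was not analysed here), 8 had at least 10 reads, 1 was lower and 3 were higher, with a median of 0.43. The heparin cofactor Serpind1 had 583 and 160 reads (-1.63), F11 had 114 and 38 (-1.33), and Proc and Pros1 were at -0.55 and -0.49. The 3 higher genes, F5, Plg and Serpinc1, had 3 or fewer reads in the control library. Beside the counts of both lists, 5.60% of all genes tested were lower and 2.71% were higher.

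**Figure D4:**
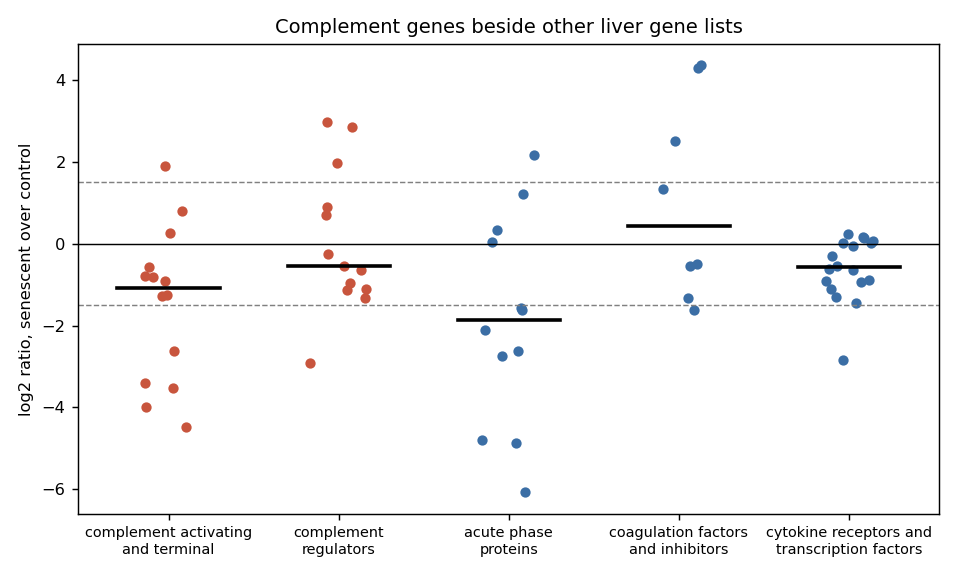
Log2 ratio of senescent over control (points, 1 per gene with at least 10 reads) for complement genes (red) and other liver gene lists (blue), with thick bars at list medians, the thin line at the median of all genes and dashed lines at 1.5 in either direction. Medians were -1.08 for activating and terminal complement components, -0.55 for complement regulators, -1.87 for acute phase proteins, 0.43 for coagulation genes and -0.58 for the cytokine receptors and transcription factors.

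The libraries held 28021941 (control) and 25738075 (senescent) reads in all. Both libraries expressed the hepatocyte markers Hnf4a (8187 and 7705 reads), Krt8 (119403 and 144783), Krt18 (40512 and 60941) and Ttr (23146 and 10486). Alb (32076 and 2917 reads, -3.23) and Apoa1 (2026 and 197 reads, -3.13) were called lower, 2 of 10 markers. The rest of the hepatocyte list was Cebpa (1993 and 626 reads), Apoe (298 and 198), Afp (75 and 65) and Trf (26 and 17). The 10 macrophage markers summed to 81 reads in control and 158 in senescent cells, and Csf1r (15 and 40) and Ptprc (27 and 76) were called higher. Of the other 8 macrophage markers, Cd68 had 34 and 40 reads, Fcer1g 3 and 2, Lyz2 and Aif1 1 and 0 each, and Adgre1, Tyrobp, Clec4f and Marco 0 in both. The 10 fibroblast and stellate markers summed to 27 and 10 reads, 21 and 1 of them from Col1a1, and the 6 endothelial markers to 6 and 14. By the same rule 5.60% of all genes tested were lower and 2.71% were higher. C3ar1 and Serping1, which other liver cells also express, were higher in the library with more Csf1r and Ptprc reads, and the part of other cells in these values was not tested.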

How the data were processed

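RNA was poly(A)-selected, and cDNA was random-primed. The authors deposited un-normalized read counts per Ensembl gene for both libraries. The submitters' notes name CASAVA, STAR, DESeq2, edgeR and mm10 without versions or roles, and the counting tool, annotation and use of strand are not given in the sources used here, so near copies and overlapping genes could have shared or lost reads. Each column was matched to its condition through the initial letter of the sample title. Symbols and positions came from GENCODE M21 (34490 of 35275 genes had a symbol). Counts were scaled by TMM (edgeR 4.0.16, R 4.3.3), and log2 ratios used a prior count of 1. Intervals were Clopper-Pearson at 95% (scipy 1.17.1). Levels used the union of annotated exons. Shared sequence was found with blastn 2.17.0 (at least 95% identity over 100 bases). The code was tested on simulated data. Alternatives were other scalings (with DESeq2 1.42.0), priors, filters, thresholds, wider intervals, transcript lengths and, added after seeing the data, reads summed with near copies.

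The members, gene lists, motifs and neighbouring genes were chosen with earlier results of these data known. Named were the 9 genes, the complement genes of the list, up to 4 genes with the largest log2 ratio and at least 100 reads of each other list (other genes of these lists, among them Stat3, Rela, Hnf4a, Krt8, Krt18, Csf1r, Col1a1, F5, Plg and Serpinc1, were chosen after their values were seen), the genes nearest to C3 (3 by the rule), and near copies. A few genes that the rule names are not reported here.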

Additional observations from a re-analysis of the deposited data

How the results depend on the processing

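All 69 log2 ratios of the 9 genes computed under the alternatives kept their direction and their side of the threshold. Some of these could not move. An assumed coefficient of variation changes only the interval, and the near copy Cd55b and the overlapping Gm20547 added no reads to Cd55 and Cfb. With a threshold of 1, 11 genes of the complement list and 5 of the 9 genes were lower, since C4b and Cfb then counted. The list's count of higher genes was 2 with at least 100 reads, 3 with a threshold of 2 and 3 with an assumed coefficient of variation of 0.4. With at least 100 reads, 1 of the 9 genes was higher, since Serping1 had too few. The shares of all genes, 5.60% lower and 2.71% higher, hold for the main rule only. Shares at these other settings were not computed, so nothing is read from these counts. The list median was -0.25 with at least 1 read, where more genes entered, and -1.04 with at least 100 reads, where fewer entered. With the longest transcript as length, 14 of 18 levels stayed within their counting interval. The exceptions were Cd55, at 0.296 RPKM in control and 2.39 RPKM in senescent cells, and Masp1, at 3.61 and 2.45 RPKM. No paired analysis was possible because each condition had 1 library. Depth limited Serping1, C1s2, Hc and the other genes with few reads, and the intervals hold no biological spread.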

Other observations

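Genes within 200 kb of the complement genes, complement genes left out, were read for their values. Around C3, 1 of 9 genes with at least 10 reads was lower and none was higher, with a median log2 ratio of -0.43 and a range from -2.00 (Tubb4a) to 0.36 (Trip10). Around C1s1, 2 of 9 were lower, the lowest being the overlapping antisense gene Gm16567 with 14 and 0 reads, and the median was -0.22. Around C4b, 0 of 21 were called, with a median of 0.02, and around Cfb 3 of 22 were higher, the highest being Hspa1a, a heat shock gene, at 2.65. Cd55 had 1 such neighbour, Gm15675, which was called higher with 0 reads in control and 20 in senescent cells. Of the 2 around Masp1, Rtp4 was lower (14 and 1 reads, -2.74, a value that depends on the prior count) and St6gal1 was at -0.73, with a median of -1.73. Around C1ra, 1 of 7 was lower (Gm16567 again), around Serping1 1 of 10 (Ube2l6, -1.81) and around Cd59a 0 of 2, with medians of -0.17, -0.03 and -0.04, and none was higher. These counts have no replicate and no test, and by the same rule 5.60% of all genes were lower and 2.71% were higher.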
